A study of Homo sapiens with 6 samples.

Results

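The genes described here encode subunits of the transcription factor NF-kB, IkB proteins that restrain it and products of further genes that it induces. They were measured in the human pancreatic cancer cell line MIA PaCa-2. They were taken by name from the gene table, as a family whose KO and control FPKM had already been seen: the subunit genes NFKB1, NFKB2, RELA and RELB, the IkB inhibitor genes NFKBIA, NFKBIB and NFKBIE, and TNFAIP3, BIRC3 and IER3, which NF-kB itself induces. Each of the 10 had a row of its own among the 18268 rows. Total RNA was sequenced in 3 libraries from cells in which LINC00901, a gene for a long non-coding RNA, was knocked out (KO 1 to 3) and in 3 libraries from vector control cells (vector control 1 to 3). All cells grew in serum-supplemented medium, and the labels name no cytokine or other stimulus. Whether the knockout cells were a pool or 1 clone, and whether the libraries came from separate cultures, is not given in the sources used here, so p-values measure the spread between these libraries, which may be technical.

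NF-kB is a dimer of Rel family proteins. In resting cells IkB proteins hold it in the cytoplasm, and signals from TNF or interleukin-1 receptors activate the IkB kinase, which marks IkB for destruction and frees the dimer to enter the nucleus. Among the genes it then switches on are its own inhibitors, a negative feedback that ends the response, and NF-kB is often active without added stimulus in pancreatic cancer cells.

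The promoters of 4 of the genes carry the binding motif of the factor close to the start, and they are shown because these genes are both parts and known targets of the pathway. RefSeq promoter windows on GRCh38.p14, from 250 bases before to 50 after the start, were at hand for 7 of the 10 genes (all but RELB, NFKBIE and IER3). The κB consensus, searched on both strands, occurred in 4 of the 7, against 5.72% of the 27305 promoters in the table and 6.69% of those of the tested genes. The sequences below are the 250 bases before the start on the strand of the gene, 5′ to 3′, with κB matches in capitals. They lie at chr14:35404750-35404999 (minus strand), chr6:137867009-137867258, chr11:102317234-102317483 and chr4:102501109-102501358 (plus strand for the other 3).
NFKBIA: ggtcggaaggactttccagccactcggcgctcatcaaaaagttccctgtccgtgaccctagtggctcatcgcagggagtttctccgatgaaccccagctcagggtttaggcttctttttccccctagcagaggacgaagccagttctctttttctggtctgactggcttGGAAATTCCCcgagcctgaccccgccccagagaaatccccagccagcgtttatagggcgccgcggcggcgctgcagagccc
TNFAIP3: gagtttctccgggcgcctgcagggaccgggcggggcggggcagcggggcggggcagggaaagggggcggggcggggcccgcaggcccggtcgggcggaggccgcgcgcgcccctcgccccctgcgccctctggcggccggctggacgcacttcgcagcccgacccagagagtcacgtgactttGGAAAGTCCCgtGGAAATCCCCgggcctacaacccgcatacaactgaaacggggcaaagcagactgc
BIRC3: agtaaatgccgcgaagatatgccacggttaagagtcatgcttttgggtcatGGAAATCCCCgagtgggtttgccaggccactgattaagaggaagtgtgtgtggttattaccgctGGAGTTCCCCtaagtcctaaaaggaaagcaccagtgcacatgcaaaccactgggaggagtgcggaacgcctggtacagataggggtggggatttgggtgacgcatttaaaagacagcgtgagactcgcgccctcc
NFKB1: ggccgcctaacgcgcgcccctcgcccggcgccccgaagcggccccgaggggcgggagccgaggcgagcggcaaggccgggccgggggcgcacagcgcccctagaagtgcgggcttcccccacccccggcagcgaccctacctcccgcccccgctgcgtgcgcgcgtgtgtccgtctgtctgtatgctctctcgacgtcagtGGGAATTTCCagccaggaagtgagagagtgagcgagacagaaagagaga
Read in the direction of the consensus, NFKBIA and NFKB1 held the same letters, GGGAATTTCC. TNFAIP3 and BIRC3 shared GGGGATTTCC, and each had a second match, GGGACTTTCC in TNFAIP3 and GGGGAACTCC in BIRC3. The 2 matches of TNFAIP3 lay 67 to 58 and 55 to 46 bases before the start, and the match of NFKBIA 81 to 72 bases before it. The matches of BIRC3 lay farther away, at 199 to 190 and 135 to 126 bases, and that of NFKB1 at 49 to 40 bases. The windows of NFKB2, RELA and NFKBIB held none of these letters. The first bases after the start of the RELA and NFKBIB windows were not found in the early part of a GENCODE 29 transcript of the gene. Those of the other 5 were found there, which does not place them at an annotated start. A motif of the AP-1 factor, TGANTCA, which is the same on both strands apart from its middle base, occurred in 0 of the 7 windows, in 7.76% of all promoters and in 3.93% of those of the 7074 tested genes with a window. The κB matches describe letters in a window and do not show binding.

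**Figure D1:**
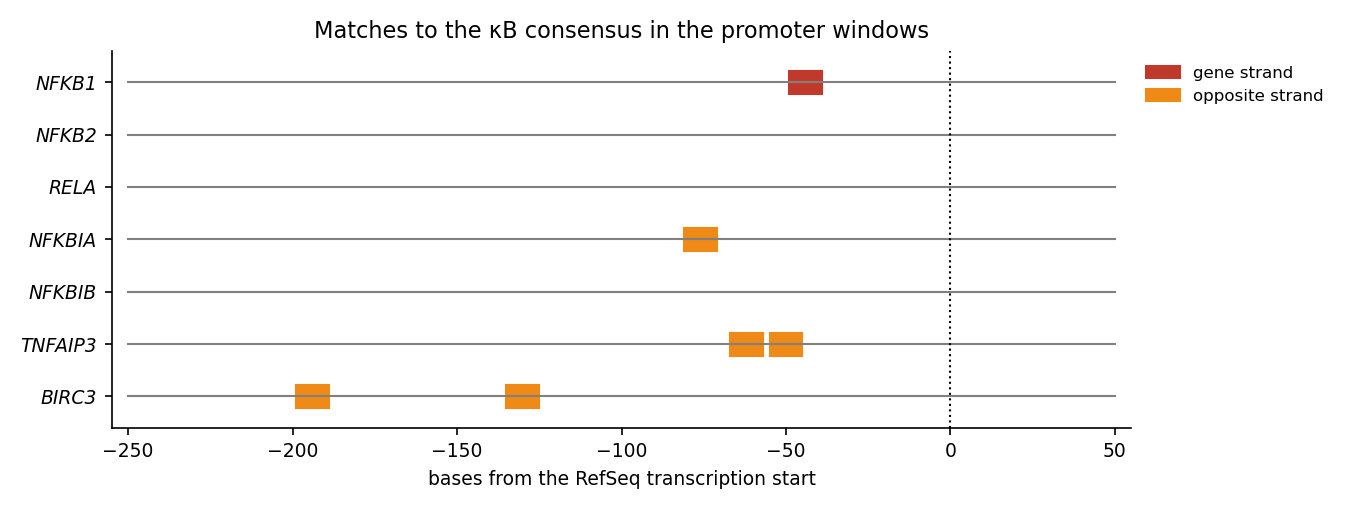
Positions of κB consensus matches in the promoter windows of the 7 genes with a RefSeq window. The x axis gives bases from the transcription start, red boxes are matches on the strand of the gene and orange boxes matches on the opposite strand. NFKBIA, TNFAIP3, BIRC3 and NFKB1 hold 1 or 2 matches each, all before the start.

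The values are FPKM, which are scaled to gene length and to the size of the library, so levels of different genes can be compared. The libraries differed in more than the group. The share of replication-dependent histone genes in all FPKM was 2.94%, 5.05% and 5.09% in KO 1 to 3, against 6.10%, 2.75% and 3.17% in vector control 1 to 3, so that KO 2, KO 3 and vector control 1 formed the high side. Across the 9624 genes tested, KO 1 correlated at r = 0.933 and 0.935 with KO 2 and 3, which correlated at 0.970 with each other. Vector control 1 correlated at r = 0.925 and 0.932 with KO 2 and 3, and less, at 0.904 and 0.906, with the other controls, which correlated at 0.979 with each other. Results are therefore also given without vector control 1 and within each side of this division. LINC00901 had 0 rows, so the knockout was not checked in these values. The cells are labelled epithelial. KRT18 and KRT19 reached 12.69 FPKM or more in every library. EPCAM (at most 0.14), CDH1 (at most 0.02), KRT7 (at most 0.11) and ESRP1 (at most 0.07) were close to 0. CLDN4 stood at 0.54, 23.03 and 21.6 FPKM in KO libraries, against 11.29, 42.72 and 42.32 in vector controls, with overlapping groups. The 8 epithelial markers with a row of their own summed to between 66.87 and 84.29 FPKM in KO libraries and between 108.5 and 162.3 in vector controls, and the part of this difference in the results below was not tested. Of 11 leukocyte markers with a row, 6, among them PTPRC and CD3E, were listed at 0 in all 6 libraries, and the list summed to between 1.53 and 2.23 FPKM in KO libraries and between 1.38 and 5.16 in vector controls. Within it LYZ stood at 1.45, 1.83 and 1.20 FPKM in KO libraries and was listed at 0 in vector controls, while HLA-DRA was listed at 0 in KO libraries, against 1.29, 3.72 and 3.86 FPKM in vector controls. The 8 fibroblast markers with a row summed to between 68.17 and 96.90 FPKM in KO libraries and between 69.02 and 99.04 in vector controls. Most of each sum came from COL1A2 and COL3A1, which went opposite ways, and DCN and FAP were listed at 0 throughout. COL1A2 stood at 51.58, 56.18 and 50.63 FPKM in KO libraries, against 24.72, 35.84 and 34.3 in vector controls. COL3A1 stood at 41.24, 18.78 and 16.46 FPKM in KO libraries, against 43.1, 61.2 and 62.02 in vector controls. The 7 endothelial markers summed to between 9.76 and 15.24 FPKM in KO libraries and between 6.72 and 14.30 in vector controls, almost wholly from EGFL7, and VWF, KDR and TEK were listed at 0. The part of these markers in the results was not tested either.

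In knockout cells 4 of the 10 genes, none of them a subunit gene, were far lower than in vector controls. The subunit genes and the IkB genes NFKBIB and NFKBIE differed less. NFKBIA, TNFAIP3, BIRC3 and IER3 stood between 0.10 and 0.34 of the control mean, NFKBIB and NFKBIE at 0.52 and 0.41, and the 4 subunit genes between 0.48 and 0.95. The 10 genes were selected on the FPKM difference between KO and vector control libraries, which an earlier analysis had shown, so these values describe them and carry no test of their own. All 10 passed the filter of at least 1 FPKM in at least 3 libraries. The limma fit over the 9624 tested genes called 4 of the 10 at an adjusted p below 0.05, all lower, where 1.35% of all tested genes were called (81 lower and 49 higher, or 99 lower and 31 higher after quantile normalization). The log2 fold change was below 0 in 9 of the 10, against 40.7% of all tested genes, and the KO libraries lay wholly below the vector controls in 7, against 8.35%. The median was -0.74 over the 10 genes and 0.08 over all tested genes. In bulk RNA, fewer cells with a transcript and less of it per cell cannot be told apart.

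Among the subunits, RELA and NFKB1 encode p65 and the precursor of p50, the usual partners of the canonical dimer. RELA stood at 5.95, 4 and 3.16 FPKM in KO 1 to 3, against 5.35, 6.86 and 6.39 in vector control 1 to 3 (log2 fold change -0.45, SE 0.22). KO 1 lay above vector control 1, so the groups overlapped. NFKB1 stood at 4.49, 5.66 and 5.64 FPKM in KO libraries, against 8.76, 3.91 and 4.02 in vector controls (log2 fold change 0.00441, SE 0.29). Vector control 1 was the highest of the 6 and the other controls the lowest, and without vector control 1 the difference of the means of log2(FPKM + 1) was 0.33. KO 1 against vector control 2 and 3 gave 0.15, while KO 2 and 3 against vector control 1 gave -0.55. The direction of NFKB1 therefore rested on the choice of libraries, and it was also negative after median scaling (-0.0743) and quantile normalization (-0.0620).

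NFKB2, which encodes the precursor of p52, and RELB, its partner in the non-canonical pathway, were lower in every KO library than in any vector control without being called. NFKB2 stood at 4.05, 4.22 and 4.10 FPKM in KO libraries, against 5.23, 7.06 and 8.16 in vector controls (log2 fold change -0.59, SE 0.18). RELB stood at 0.87, 1.30 and 1.01 FPKM in KO libraries, against 2.43, 1.93 and 2.32 in vector controls (log2 fold change -0.65, SE 0.15). The KO values of NFKB2 differed by a factor of 1.04 among themselves, and those of RELB by 1.49. Without vector control 1 both genes were called (log2 fold changes -0.75 and -0.60), in a fit that called 13.8% of all tested genes.

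**Figure D2:**
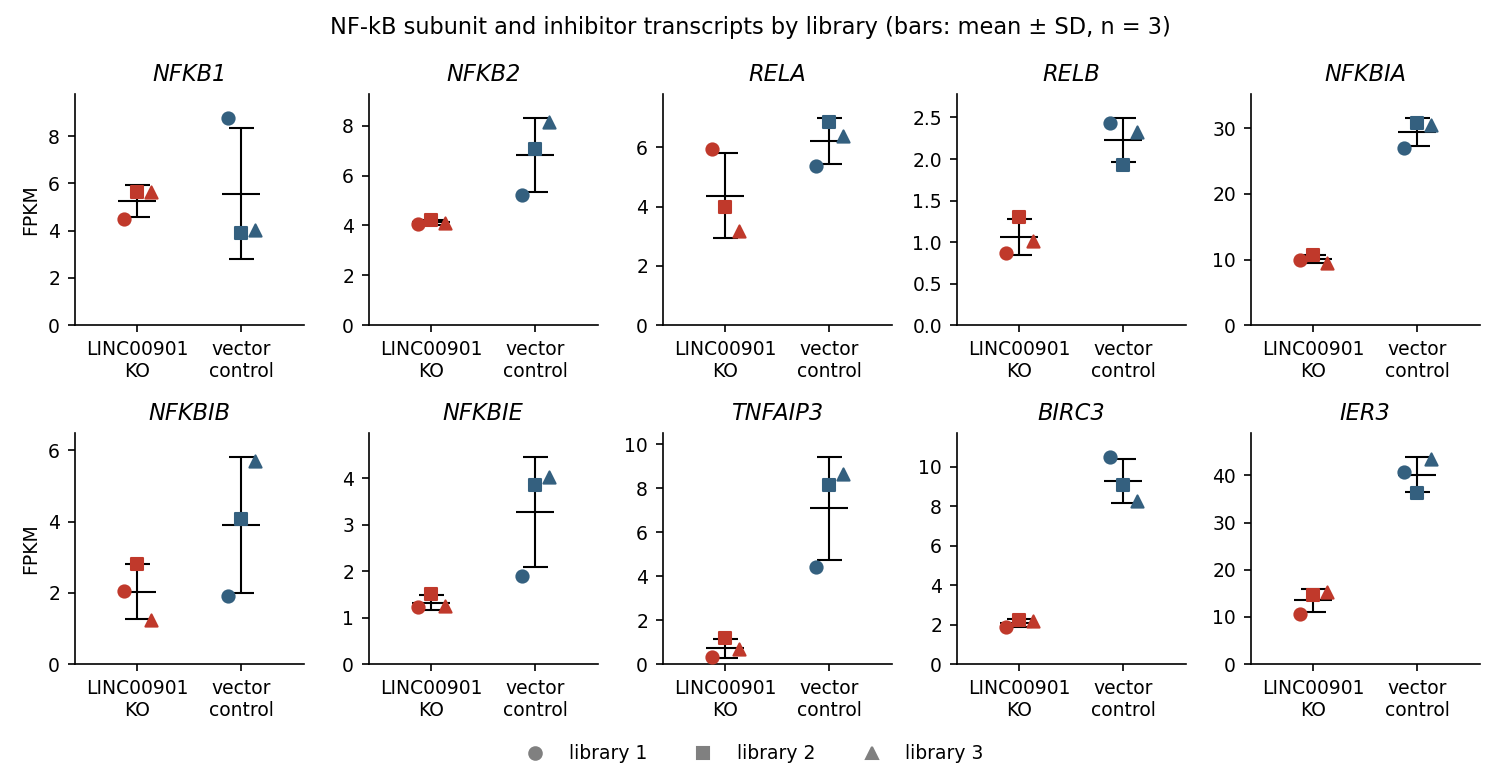
FPKM of each of the 10 genes by library, LINC00901 KO in red on the left and vector control in blue on the right, with a marker shape for the library number. Black bars give the mean ± SD of 3 libraries, and each y axis starts at 0. NFKBIA, TNFAIP3, BIRC3 and IER3 are well apart between the groups, while NFKB1, RELA and NFKBIB overlap.

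The IkB genes differed in how far apart the groups were. NFKBIA encodes IκBα, the inhibitor that NF-kB resynthesizes fastest, and it stood at 9.91, 10.76 and 9.52 FPKM in KO libraries, against 26.97, 30.75 and 30.48 in vector controls (log2 fold change -1.46, SE 0.14). Its values agreed closely inside each group, the highest being 1.13 times the lowest in KO and 1.14 times in vector control. It fell in the limma fit. At its KO mean of 10.1 ± 0.634 FPKM it lay above 73.2% of the tested genes, and at its control mean of 29.4 ± 2.11 above 92.0% (SD, n = 3 per group). NFKBIE, the gene of IκBε, stood at 1.22, 1.50 and 1.25 FPKM in KO libraries, against 1.90, 3.86 and 4.03 in vector controls (log2 fold change -0.84, SE 0.23). The groups did not overlap, yet vector control 1 was close to the KO libraries. Without it the difference was -1.09 and the gene was called, in a fit that called 13.8% of all tested genes. NFKBIB, the gene of IκBβ, stood at 2.05, 2.80 and 1.25 FPKM in KO libraries, against 1.92, 4.08 and 5.71 in vector controls (log2 fold change -0.64, SE 0.34). Vector control 1 lay inside the KO range, and KO 2 and 3 against vector control 1 gave a difference of 0.00199 on the log2 scale. The exons of NFKBIB overlap those of SIRT2 on the opposite strand in GENCODE 29, and with strand use not stated the reads of the 2 genes cannot be told apart.

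The 3 remaining genes act at other points of the pathway or in cell death, and each fell in the limma fit. TNFAIP3 encodes A20, a ubiquitin-editing enzyme that shuts off signalling upstream of the IkB kinase. It stood at 0.33, 1.18 and 0.67 FPKM in KO libraries, against 4.41, 8.16 and 8.66 in vector controls (log2 fold change -2.21, SE 0.28). Of the 10 genes it had the lowest mean in KO cells and the fourth highest in vector controls, and it entered the test through the vector controls, since KO 2 was the only KO library above 1 FPKM. KO 1 was the lowest KO library and vector control 1 the lowest control, so the difference ran from -1.50 for KO 2 and 3 against vector control 1 to -2.82 for KO 1 against vector control 2 and 3. BIRC3 encodes the ubiquitin ligase cIAP2, which acts at the TNF receptor and in the turnover of the kinase NIK. It stood at 1.88, 2.25 and 2.19 FPKM in KO libraries, against 10.48, 9.09 and 8.26 in vector controls (log2 fold change -1.72, SE 0.16). Both groups were tight, and the difference was -1.75 and -1.83 within the 2 sides of the division. IER3, an early response gene whose product modulates apoptosis, stood at 10.70, 14.68 and 15.20 FPKM in KO libraries, against 40.74, 36.21 and 43.51 in vector controls (log2 fold change -1.51, SE 0.18). It was the most abundant of the 10 genes in both groups. The exons of TNFAIP3 and IER3 overlap antisense genes (AL357060.1 and IER3-AS1), and those of RELA a long non-coding RNA gene (AP001362.2), all on the opposite strand.

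Which genes were called depended on single libraries. BIRC3 was called with each of the 6 libraries left out in turn, NFKBIA in all but the fit without KO 3, IER3 in the fits without KO 1, vector control 1 or vector control 2, and TNFAIP3 only in the fit without vector control 1. Leaving out KO 1, KO 2 or KO 3 gave 3, 2 and 1 of the 10 genes, where 1.26%, 0.301% and 0.26% of all tested genes were called. Leaving out vector control 1, 2 or 3 gave 7, 3 and 2, where 13.8%, 0.405% and 0.405% of all tested genes were called. The log2 fold changes of these 4 genes moved little, between -2.48 and -2.04 for TNFAIP3 and between -1.52 and -1.42 for NFKBIA. With the division of the libraries as a term in the fit the same 4 genes were called, with 2.49% of all tested genes.

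**Figure D3:**
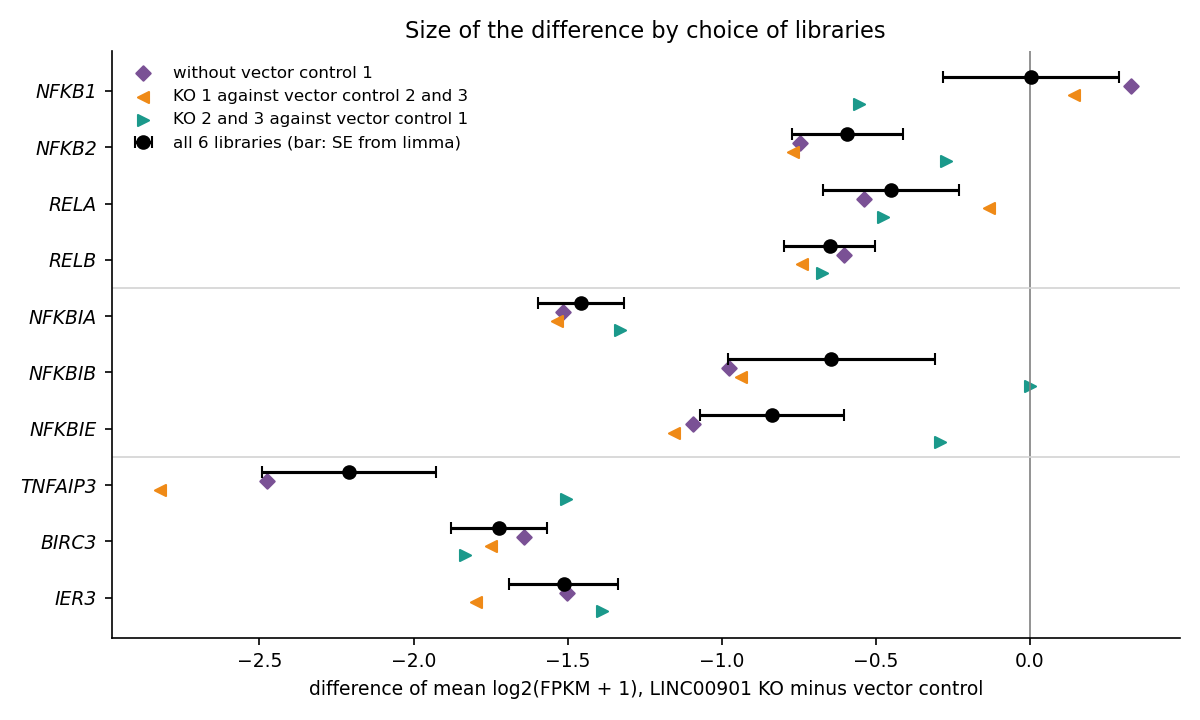
Difference of mean log2(FPKM + 1), LINC00901 KO minus vector control, for each gene on the y axis. Black circles are all 6 libraries with the SE from limma, diamonds leave out vector control 1, and triangles compare libraries within each side of the histone division. BIRC3, NFKBIA, IER3 and TNFAIP3 lie below -1 for every choice, while the triangles of NFKB1 lie on both sides of 0.

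The order of the levels differed between the groups. In KO cells IER3 and NFKBIA led, with overlapping ranges, followed by NFKB1, RELA and NFKB2, whose ranges also overlapped. BIRC3, NFKBIB, NFKBIE, RELB and TNFAIP3 followed with means from 2.11 to 0.727 FPKM, and each overlapped its neighbour in the order. In vector controls IER3 and NFKBIA led with ranges apart from each other and from the rest. BIRC3 came next at 9.28 FPKM, overlapping TNFAIP3, and from TNFAIP3 down to RELB every neighbour overlapped the next. BIRC3 thus lay below all of NFKB1, NFKB2 and RELA in each KO library (means 2.11 against 4.12 to 5.26 FPKM), while in vector controls it had the higher mean (9.28 against 5.56 to 6.82).

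Summed by role, the 4 subunit genes came to 15.4, 15.2 and 13.9 FPKM in KO libraries, against 21.8, 19.8 and 20.9 in vector controls. The 3 IkB genes came to 13.2, 15.1 and 12.0 FPKM in KO libraries, against 30.8, 38.7 and 40.2 in vector controls. The amount of NFKBIA transcript per RELA transcript was 1.67, 2.69 and 3.01 in KO libraries, against 5.04, 4.48 and 4.77 in vector controls. These ratios did not overlap between the groups. NFKBIA made up 75.2%, 71.5% and 79.2% of the IkB sum in KO libraries, against 87.6%, 79.5% and 75.8% in vector controls, where the groups overlapped. The ratio of NFKB2 to NFKB1 was 0.902, 0.746 and 0.727 in KO libraries, against 0.597, 1.81 and 2.03 in vector controls, with vector control 1 below all KO libraries.

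The rest of the pathway was described from 4 lists of textbook genes, from which the 10 genes were left out. Of 155 entries, 140 had a row of their own and 93 of these were tested. Over all 4 lists 4 genes fell and 0 rose, against a background of 1.35% called. The median log2 fold change was -0.18, with 58 of the 93 genes below 0, against 40.7% of all tested genes. The sides of the pathway differed in their medians, which were -0.30 for ligands and receptors, 0.24 for adaptors, kinases and ubiquitin ligases, -0.18 for other Rel, IkB and inhibitor genes, and -0.60 for target genes, beside 0.08 for all tested genes.

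Of 8 tested ligand and receptor genes, 1 fell and 7 did not pass, where 1.35% of all tested genes were called. All 8 log2 fold changes were below 0, against 40.7% of all tested genes. An unadjusted limma p below 0.05 was reached by 2 of the 8, against 17.5%. TNFRSF1B, the second TNF receptor, stood at 0.73, 0.64 and 0.84 FPKM in KO libraries, against 2.07, 2.27 and 2.12 in vector controls. It passed the filter through the vector controls alone, and a gene with all KO values below 1 FPKM is tested only if its controls are higher. Its log2 fold change was -0.86 (SE 0.13, adjusted p = 0.0288 with limma), and the call was lost in each fit that left out 1 library other than vector control 1 (adjusted p between 0.0609 and 0.160). TNFRSF12A, the receptor of TWEAK, had a log2 fold change of -0.50 (adjusted p = 0.229), IL1R1, the interleukin-1 receptor, -0.13 (adjusted p = 0.725) and LTBR, the lymphotoxin beta receptor, -0.03 (adjusted p = 0.966). Most cytokine genes that start the pathway were below the filter, and those that follow are named after their values were seen. TNF itself stood at 0.20, 0 and 0.14 FPKM in KO libraries, against 0.50, 2.36 and 3.60 in vector controls. In a fit without the filter its log2 fold change was -1.36 (adjusted p = 0.164). The interleukin-1 gene IL1A went the other way, at 0.81, 0.83 and 0.63 FPKM in KO libraries, against 0.19, 0.20 and 0.08 in vector controls. Without the filter limma called it higher (log2 fold change 0.60, adjusted p = 0.0249). IL1B stood at 0.07, 0.47 and 0.24 FPKM in KO libraries, against 0.09, 0.03 and 0.05 in vector controls, with overlapping groups (0.24, adjusted p = 0.323). LTA and CD40 were listed at 0 throughout.

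Of 32 tested adaptor, kinase and ubiquitin ligase genes, 0 were called by limma. An unadjusted p below 0.05 was reached by 7 of them and by 17.5% of all tested genes. The KO libraries lay wholly above the vector controls in 10 of the 32, against 15.4% of all tested genes, and wholly below in 2, against 8.35%. IRAK2, a kinase of the interleukin-1 and Toll-like receptor complex, had the lowest log2 fold change of the list. It stood at 3.04, 1.78 and 2.42 FPKM in KO libraries, against 4.66, 12.66 and 13.20 in vector controls (-1.61, adjusted p = 0.104). UBE2N, the enzyme that builds lysine-63 ubiquitin chains, was at -0.46 (adjusted p = 0.482). At the other end XIAP, an inhibitor of apoptosis, stood at 8.22, 9.49 and 8.31 FPKM in KO libraries, against 2.07, 2.37 and 4.60 in vector controls (1.32, adjusted p = 0.0568). RIPK1, the kinase that links TNF receptors to NF-kB or to cell death, stood at 7.76, 16.38 and 17.75 FPKM in KO libraries, against 11.40, 1.27 and 1.43 in vector controls (1.79, adjusted p = 0.236). Vector control 1 lay inside the KO range of RIPK1.

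Of 17 tested genes of other Rel, IkB and inhibitor proteins, 0 were called by limma and 4 had an unadjusted p below 0.05, against 17.5% of all tested genes. TNIP1, whose product binds A20, was closest to the threshold, at 5.09, 4.17 and 3.71 FPKM in KO libraries, against 8.70, 8.23 and 9.45 in vector controls (log2 fold change -0.89, SE 0.16, adjusted p = 0.0516). ZC3H12A, which encodes the ribonuclease regnase-1, stood at 0.86, 1.05 and 1.33 FPKM in KO libraries, against 0.97, 5.74 and 6.20 in vector controls (-1.14, adjusted p = 0.274). Vector control 1 again lay among the KO libraries. The ubiquitin ligase gene ITCH was at 0.69 (adjusted p = 0.128) and the pseudokinase gene TRIB3 at 0.38 (adjusted p = 0.390).

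Of 36 tested target genes, 3 fell, 0 rose and 33 did not pass, where 1.35% of all tested genes were called. The log2 fold change was below 0 in 30 of them, against 40.7% of all tested genes. An unadjusted limma p below 0.05 was reached by 18, against 17.5%, in a list drawn up with earlier results known. In 15 the KO libraries lay wholly below the vector controls, against 8.35% of all tested genes, and in 2 wholly above, against 15.4%. The chemokine genes CXCL8 and CXCL5 and the kinase gene NUAK2 were the 3 that fell. NUAK2 stood at 0.07, 0.24 and 0.33 FPKM in KO libraries, against 3.89, 4.17 and 3.09 in vector controls (log2 fold change -1.96, SE 0.16, adjusted p = 0.00307). It passed the filter through the vector controls alone, and with all KO values below 1 FPKM a gene is tested only if its controls are higher. CXCL8 and CXCL5 had log2 fold changes of -2.97 and -1.71 (adjusted p = 0.00799 and 0.0357). The call of CXCL5 was lost without KO 2, KO 3, vector control 2 or vector control 3 (adjusted p between 0.123 and 0.158), and that of CXCL8 without KO 2 (adjusted p = 0.0510). The highest values of the list belonged to the lymphatic growth factor gene VEGFC (1.06, adjusted p = 0.105) and the chemokine gene CXCL6 (0.68, adjusted p = 0.116), neither of which passed. Of the 64 targets listed, 1 had only a joined row, and the 27 that were not tested include IL6 and BCL2A1, named after their values were seen and listed at 0 in every library.

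**Figure D4:**
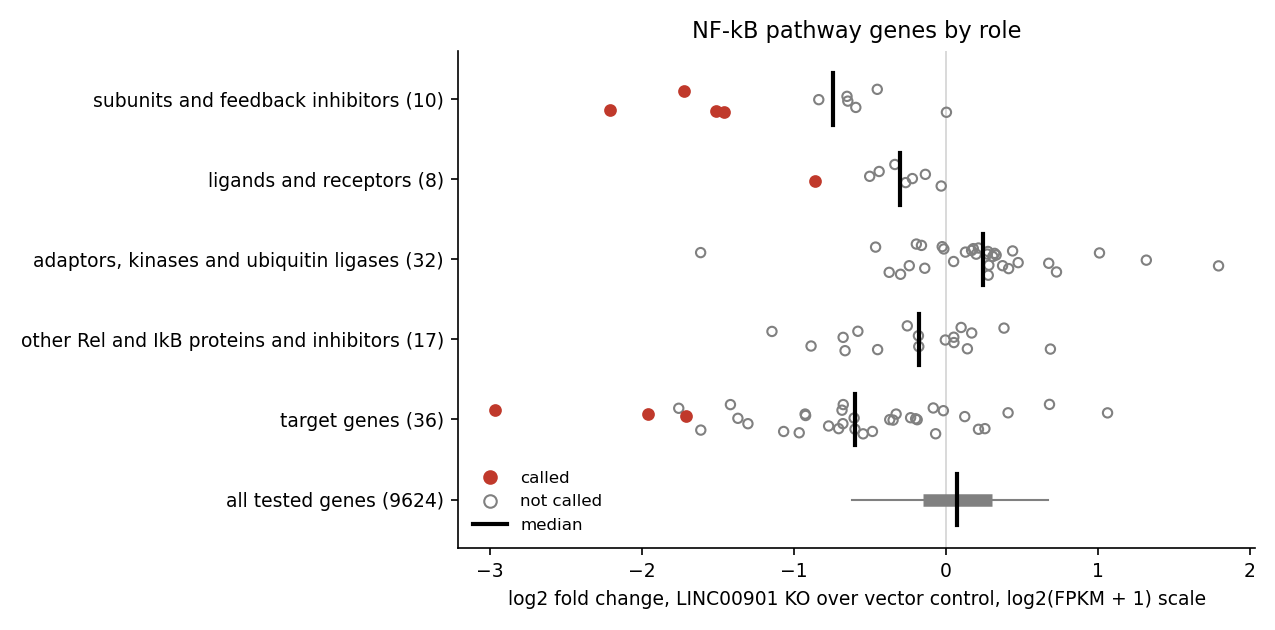
Log2 fold change, LINC00901 KO over vector control, of the 10 genes and of the tested genes of each pathway list, with the number of genes in brackets. Filled circles were called, open circles were not, black bars are medians, and the grey bars at the bottom span the middle 50% and 90% of all tested genes. Medians run from -0.74 for the 10 genes to 0.24 for the adaptors and kinases.

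Matches to the κB consensus were also counted in the promoter windows of other genes. Of the 28 tested target genes with a window, 10 held a match (35.7%). Among all genes called lower, 5 of 54 with a window held one (9.26%), and 4 of 34 called higher (11.8%), beside 6.69% of the 7074 tested genes with a window. The 5 included NFKBIA, TNFAIP3 and BIRC3, which were selected on this contrast. Without them 2 of 51 genes called lower held a match (3.92%), CXCL5 and the laminin gene LAMB3. No test was made of these shares.

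By likeness of profile, measured as the root mean square difference of centred log2(FPKM + 1) values over the 6 libraries, the 5 tested genes nearest to NFKBIA were CAMK1G, COTL1, STK17A, IFIT3 and PSG8. Their differences ran from 0.0641 for CAMK1G, a kinase gene listed at 0 in all KO libraries, to 0.133 for PSG8. CAMK1G stood at 1.69, 1.76 and 1.82 FPKM in vector controls. PSG8 stood at 0, 0.06 and 0.03 FPKM in KO libraries, against 1.4, 1.97 and 2.61 in vector controls. With 1 FPKM added before the log, these near-complete losses at low FPKM came out like the smaller fall of NFKBIA. COTL1, an actin-binding protein gene, was the most abundant of them, at 34.13, 39.77 and 33.07 FPKM in KO libraries, against 91.08, 90.36 and 95.34 in vector controls. The 5 nearest to TNFAIP3 were PDP1, NRP2, LAMB3, HLA-DRA and DNER, with differences from 0.174 to 0.278. PDP1, a pyruvate dehydrogenase phosphatase gene, shared its low value in vector control 1, at 0.26, 1.01 and 0.21 FPKM in KO libraries, against 2.99, 6.14 and 5.68 in vector controls. All 6 libraries entered these differences, so the gap between the 2 groups is part of each of them. CAMK1G, PSG8, NRP2, LAMB3 and HLA-DRA passed the filter through the vector controls alone.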

How the data were processed

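Total RNA libraries were placed in 2 groups of 3 by their titles and genotype labels. The authors deposited FPKM values for 18268 gene rows with 2 decimals. The submitters' processing notes name HISAT2, cutadapt and FastQC and the human build hg19. Strand use, annotation, versions and the FPKM program: not given in the sources used here. A search of low values of short genes found no whole-read steps (best concentration 0.435, where exact multiples give 1), so depth is unknown, and the number of libraries limits the precision. Joined rows, 990 in all, were kept as 1 unit. A value of 0 may be an unmeasured one.

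From these values, limma 3.58.1 (R 4.3.3; lmFit, eBayes with trend) was fitted to log2(FPKM + 1) for the 9624 rows with at least 1 FPKM in at least 3 libraries. Tests were two-sided with Benjamini-Hochberg adjusted p below 0.05 over all genes tested. Log2 fold changes are KO over vector control on that scale, so the change of a gene with low FPKM is understated. The fit was run on simulated data with independent noise for each gene and library. Those data lack the division of the libraries, so that run says nothing about calls that depend on it. The 10 genes, the lists and the alternatives were chosen with earlier results of these data known. Genes named from the lists were those called and the 2 highest and 2 lowest log2 fold changes of each. Promoters are RefSeq sequences of GRCh38.p14, and exon overlaps come from GENCODE 29. Alternatives were other pseudocounts, filters, scalings, variance models, thresholds, a replicate block, a term for the histone division and each library left out in turn. The fits without 1 library kept the genes tested in all 6.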

Additional observations from a re-analysis of the deposited data

How the results depend on the processing

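The number of the 10 genes called stayed at 4 with pseudocounts of 0.1 and 0.5 FPKM, no filter, median scaling, quantile normalization, limma without trend, the division term and an adjusted p below 0.1. It was 3 of 6 tested with a filter at 5 FPKM, and 9 with robust limma and array weights, a fit that called 4020 of all 9624 tested genes. It was 2 at an adjusted p below 0.01 and between 1 and 7 with 1 library left out. All genes called, 130 of 9624 tested, became 241 of 14413 without a filter and 59 of 5188 with a filter at 5 FPKM. Of the same 9624 genes, 240 were called with the division term and 4020 with robust limma and array weights. At an adjusted p below 0.01 they were 31, below 0.1 they were 274, and with 1 library left out between 25 and 1329. Pathway list genes called, 4 of 93 tested, became 2 of 53 with a filter at 5 FPKM. They were 11 of 93 with the division term and 54 of 93 with robust limma and array weights. Median scaling gave 6 and quantile normalization 5. Their number was 2 at an adjusted p below 0.01, 8 below 0.1 and between 1 and 29 with 1 library left out. TNIP1 was called in 6 alternative fits, median scaling and quantile normalization among them, and not in 10. The cause of these shifts was not tested.

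Same-numbered libraries did not deviate together (r of -0.374, -0.153 and -0.264), so the replicate block pairs them by number only. With that block limma called 7 genes in all, 0 of the 10 genes and 0 list genes. An unadjusted p below 0.05 was reached by 7 of the 10 genes, 25 of 93 list genes and 11.9% of all tested genes. NFKB1 turned negative with median scaling (-0.0743), quantile normalization (-0.0620), the division term (-0.20) and in 4 of the fits without 1 library, which ran from -0.17 to 0.33. LTBR turned positive with the division term (0.11) and ran from -0.21 to 0.18 with 1 library left out. Depth is unknown, so no counting error could be given. Without a filter 6 of 130 list genes were called, CXCL5, CXCL8, NUAK2, TNFRSF1B and TNIP1 lower and IL1A higher.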
